A study of Arabidopsis thaliana with 4 samples.

Results

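ER bodies are described here through 10 Arabidopsis genes, 5 β-glucosidases (PYK10, BGLU18, BGLU19, BGLU21 and BGLU22) and 5 genes that build or regulate the compartment (NAI1, NAI2, TSA1, MEB1 and MEB2). They were picked by locus identifier, 10 of the 24750 genes in the table, because PYK10 was among the strongest seedling genes, so the difference between stages is given for them as a description without p-values. ER bodies are large spindle-shaped compartments that bud from the endoplasmic reticulum in Arabidopsis and its relatives and store β-glucosidases. When an insect or a wound breaks the cell, these enzymes meet glucosides such as indole glucosinolates that are kept elsewhere in the cell, and the products deter the attacker. In seedlings and roots the bodies are present constitutively and their main protein is PYK10, whereas in rosette leaves wounding or jasmonate induces bodies that carry BGLU18 and TSA1.

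The RNA came from wild-type Col-0 plants and was read by Nanopore direct RNA sequencing (DRS), in which the polyadenylated molecule itself passes the pore without reverse transcription or amplification. The seedling group (2 biological replicates) was whole seedlings after 14 days on sucrose-containing agar plates. The floral bud group (2 biological replicates) came from plants moved from such plates to soil for 3 more weeks and harvested at growth stage 6.0 to 6.1, with a day of 16 h light and 8 h dark for both groups. Organ, age and growth medium therefore differ together and cannot be told apart, and since whole organs were sampled, fewer cells of a type and less RNA per cell cannot be told apart either.

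The libraries held 579350 to 796873 estimated counts. A count of 3, the limit that a count of 0 allows, is 3.76 to 5.18 CPM (each count divided by its library total and put on one scale) in these libraries, and it covers counting error only. The floral marker list (5 genes, among them AP3, PI and SEP3) summed to 1172 and 1081 normalized CPM in the bud libraries and to 10.6 and 5.07 in the seedling libraries. Of 10 root markers, 9 were at 0 in both bud libraries, and the list summed to 4.97 and 2.82 normalized CPM there against 164 and 134 in seedlings. All 6 green tissue markers, among them CAB1, LHCB3 and LHCA1, were higher in seedlings, with sums of 29308 and 30676 against 6570 and 6190 normalized CPM. RBCS1A, a gene for the small subunit of Rubisco that green tissue uses heavily, is listed at 0 in all 4 libraries, so a listed 0 can be a failed estimate.

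The end of the glucosidase coding sequences, where the signal for retention in the endoplasmic reticulum lies, is shown because it is a feature the choice of genes did not use. The lines give the last 30 coding bases before the stop codon, read 5′ to 3′ from the TAIR10.1 genome, with the last 4 codons, those of the retention signal at the protein's C terminus, in capitals.
PYK10: cgtccatccgcgctcaagAAGGATGAGCTT
BGLU22: cgtccatccgcgctcaagAAGGATGAGCTT
BGLU21: cgtccatccgcactcaagAGGGATGAGCTT
BGLU18: tttccaacctccaagctgAGGGAAGAACTC
BGLU19: tctaagtcctcaaagctaCACGAGGAGCTC
PYK10 and BGLU22 had the same 30 bases, and BGLU21 matched them at 28 of 30. BGLU18 matched PYK10 at 16 of 30 bases and at 0 of the 4 last codons. It matched BGLU21 at 17 and BGLU19 at 18 of 30, each with 1 of the 4 last codons. Different codons can encode the same residue, so these counts do not tell how far the retention signals differ as protein. Over the whole coding sequence, BGLU21 and BGLU22 were 93.3% identical, PYK10 was 84.0% and 83.7% identical to BGLU21 and BGLU22, and PYK10 was 70.7% identical to BGLU18. The 3 genes with nearly the same tail, which is a part of the coding sequence, were also the closest over the whole of it. They were the 3 glucosidases higher in seedlings, in the contrast that led to the choice of genes.

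BGLU18 led the members in floral buds and PYK10 led them in seedlings, and the ER body genes as a group took about the same share of each library. All members together held 0.182% (Wilson 95% interval 0.173 to 0.192) and 0.203% (0.193 to 0.215) of the counts in the bud libraries, and 0.212% (0.201 to 0.225) and 0.192% (0.181 to 0.203) in the seedling libraries. The shares of the stages overlapped, although after normalization the members summed to 1808 and 1919 CPM in buds and 2168 and 2010 CPM in seedlings, which did not overlap. In floral buds, BGLU18 supplied 92.2% and 95.01% of the members' counts and PYK10 0.344% and 0%. In seedlings, BGLU18 supplied 17.1% and 14.4%, and PYK10 63.3% and 64.4%. Divided by spliced length, the share of PYK10 in seedlings was 67.1% and 68.6%, and that of BGLU18 in buds 93.4% and 95.8%. The same genes thus led per length.

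**Figure D1:**
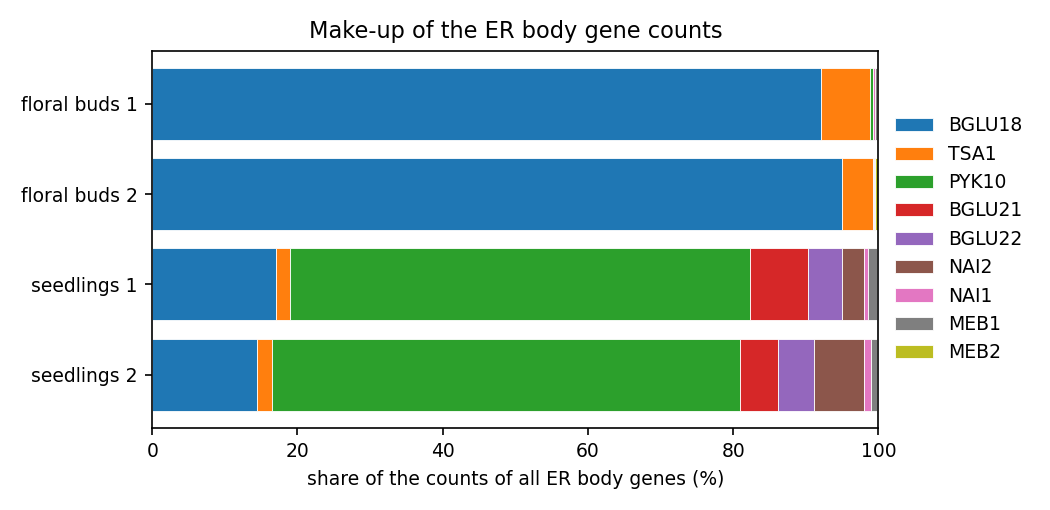
Share of each gene in the summed counts of the ER body genes, in percent, with 1 bar per library and 1 colour per gene. BGLU18 fills 92.2% and 95.01% of the bars of floral buds, and PYK10 fills 63.3% and 64.4% of those of seedlings.

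PYK10 (AT3G09260, also BGLU23), the most abundant ER body protein of roots and young seedlings, lies at chr3:2840477-2843781 on the minus strand of TAIR10.1 and has 13 exons. Its estimated counts were 4.74 and 0 in the bud libraries and 779 and 766 in the seedling libraries. Both seedling libraries lay far above both bud libraries. PYK10 ranked 65 and 73 among the genes of the seedling libraries. The normalized level was 3.11 ± 4.40 CPM (SD, n = 2) in buds and 1334 ± 54.4 CPM (n = 2) in seedlings, a log2 fold change of 8.58 (SE 0.29), and it was the second of the 1775 genes higher in seedlings when ordered by FDR in the contrast that led to the choice of genes. The size of that difference rests on the 4.74 counts of floral buds replicate 1. Without that library the buds stand at 0 and the fitted value of 12.69 is no measure of size, whereas without floral buds replicate 2 it was 7.73. The gene at AT3G09250 overlaps the PYK10 gene by 138 bp on the opposite strand and is listed at 0 in all libraries.

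BGLU21 and BGLU22 are root-type glucosidases that lie next to each other on the minus strand of chromosome 1, BGLU21 (AT1G66270) at chr1:24699868-24703166 and BGLU22 (AT1G66280) at chr1:24706512-24709996, 3345 bp apart. Both were listed at 0 in the bud libraries. BGLU21 had 99.1 and 62.9 estimated counts in the seedling libraries, 140 ± 48.0 normalized CPM (SD, n = 2), at least 35.3-fold higher than a floor of 3 counts per bud library. BGLU22 had 57.1 and 58.9 estimated counts, 100.1 ± 0.448 normalized CPM (n = 2), at least 25.2-fold higher. Here and below, such a bound sets the mean of the higher stage against the floor. It leaves out the spread between the libraries of that stage. BGLU21 was 1.73 times BGLU22 in one seedling library and 1.07 times in the other. A read that covers only a part of these copies can be given to the wrong one, so the stretch with the densest differences is printed to show what tells them apart. The lines hold coding bases 16 to 75 of each gene, counted from 1 at the start codon, with the 12 bases that differ in capitals.
BGLU21: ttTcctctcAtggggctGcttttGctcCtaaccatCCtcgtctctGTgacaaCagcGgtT
BGLU22: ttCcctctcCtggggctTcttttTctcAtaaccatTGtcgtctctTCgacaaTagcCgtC
The coding sequences differ at 106 of 1575 positions in all. The spliced transcripts align at 90.3% identity over 99.3% of the BGLU21 transcript, and no gene matched a member at 95% identity over 80% of its transcript.

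BGLU18 (AT1G52400, also BGL1), the glucosidase of wound-induced ER bodies, which also frees abscisic acid from its glucose ester, was the member with the highest level in floral buds. It lies at chr1:19514989-19518411 on the plus strand. Its estimated counts were 1340 and 1294 in the bud libraries and 210 and 171 in the seedling libraries. The groups did not overlap. BGLU18 ranked 24 and 19 among the genes of the bud libraries, and 395 and 573 in seedlings. The normalized level was 1745 ± 111 CPM (SD, n = 2) in buds and 330 ± 57.1 CPM (n = 2) in seedlings, 5.30-fold higher in buds (log2 fold change -2.41, SE 0.15), and from -2.58 to -2.23 when single libraries were left out. In seedlings, BGLU18 still stood at 0.269 and 0.223 times the counts of PYK10. BGLU19 (AT3G21370, chr3:7524054-7527677, minus strand), its closest relative in the set at 74.1% coding identity, was listed at 0 in all 4 libraries and could not be compared. The gene AT3G21360 overlaps BGLU19 by 527 bp on the opposite strand and had 10, 7, 3 and 9 counts.

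**Figure D2:**
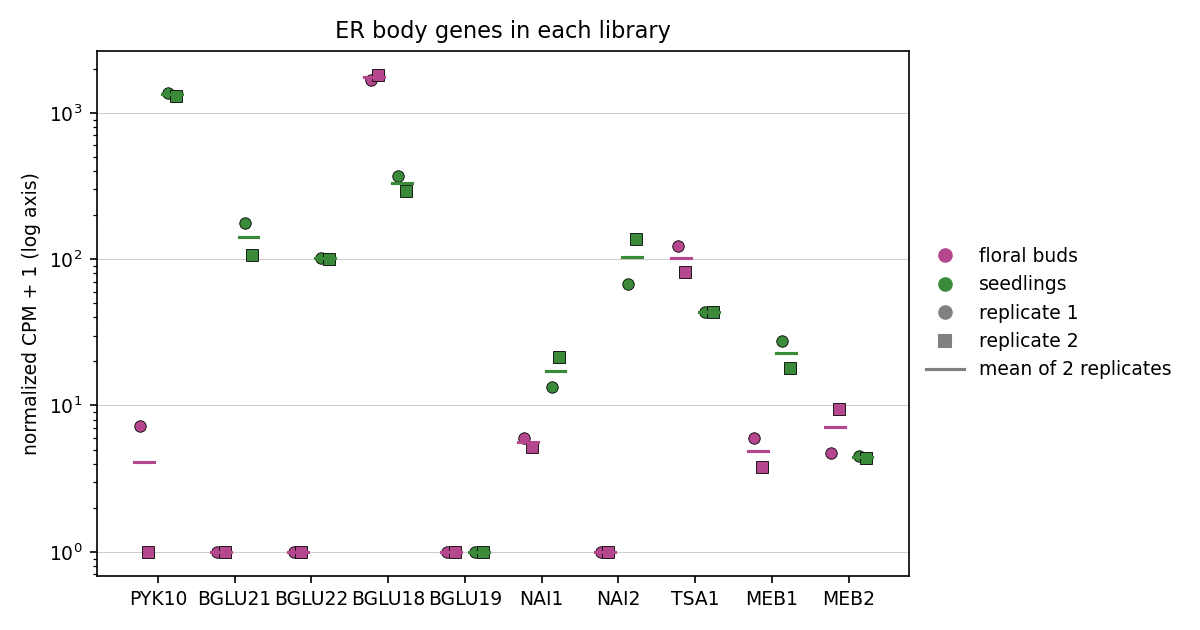
Normalized CPM plus 1 (log axis) of each ER body gene in the 4 libraries, with a point per library and a line at the mean of each stage. PYK10 goes from a mean of 3.11 CPM in buds to 1334 CPM in seedlings, BGLU18 goes from 1745 to 330 CPM, and BGLU19 stays at 0.

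NAI1 (AT2G22770, chr2:9684562-9686613, plus strand) encodes the bHLH transcription factor that the constitutive bodies need and that is required for PYK10 and NAI2 transcripts in seedlings. Its estimated counts were 4 and 3 in buds and 7 and 12 in seedlings. The groups did not overlap, at levels close to the floor of 3 counts. The normalized level was 4.60 ± 0.527 CPM (SD, n = 2) in buds and 16.3 ± 5.63 CPM (n = 2) in seedlings, with a log2 fold change of 1.78 (SE 0.73) that did not pass the limits. It ranked 10964 and 8369 in the seedling libraries, far below the ranks of 65 and 73 of PYK10.

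NAI2 (AT3G15950, chr3:5397541-5402653, minus strand), a protein with repeats that the bodies need to form, was listed at 0 in both bud libraries. It had 38.4 and 80.6 estimated counts in the seedling libraries. The mean level in seedlings was 102 ± 49.5 normalized CPM (SD, n = 2), at least 25.6-fold above the floor in buds, with single libraries at 66.9 and 137 CPM. The seedling libraries differed 2.05-fold in NAI2, whereas PYK10 differed by a ratio of 0.944. PYK10 accordingly stood at 20.3 and 9.51 times the NAI2 counts, or 29.2 and 13.7 times per length.

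TSA1 (AT1G52410, chr1:19520603-19525685, plus strand), the relative of NAI2 in wound-induced bodies (74.4% coding identity), followed BGLU18 in direction. It lies 2191 bp beyond BGLU18 on the same strand. Its estimated counts were 97.9 and 56.6 in buds and 24.2 and 25.2 in seedlings. Both bud libraries were above both seedling libraries. The normalized level was 101 ± 29.4 CPM (SD, n = 2) in buds and 42.3 CPM in each seedling library, 2.40-fold higher in buds (log2 fold change -1.26, SE 0.30). Without floral buds replicate 1 the log2 fold change was -0.93, below the fold limit. The difference was smaller than that of BGLU18, and the BGLU18 to TSA1 ratio of counts was 13.7 and 22.9 in buds and 8.65 and 6.79 in seedlings. NAI2 and TSA1, the 2 forms of the body-forming protein, thus lay on opposite sides, NAI2 with PYK10 and TSA1 with BGLU18.

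MEB1 and MEB2 are membrane proteins of the ER body that resemble vacuolar iron transporters. MEB1 (AT4G27860, chr4:13873708-13876528, plus strand) had 3.57 and 1.73 estimated counts in buds and 14.9 and 9.75 in seedlings. Its normalized level was 3.90 ± 1.52 CPM (SD, n = 2) against 21.7 ± 6.73 CPM (n = 2), 5.27-fold higher in seedlings (log2 fold change 2.40, SE 0.70). This passed the limits with all 4 libraries, but not with glmTreat or with DESeq2 (2.48), nor without floral buds replicate 2 (2.1) or seedlings replicate 1 (2.06). A noncoding RNA, AT4G27852, overlaps MEB1 by 200 bp on the opposite strand and had 0, 1, 0 and 1 counts. MEB2 (AT5G24290, chr5:8263111-8265748, minus strand, 61.9% coding identity to MEB1) had 2.56 and 6.46 estimated counts in buds and 2.25 and 1.73 in seedlings, with a log2 fold change of -0.76 (SE 1.05). All 4 MEB2 values were near the floor of 3 counts, the bud libraries differed 2.27-fold between themselves, and the log2 fold change ran from -1.25 to -0.08 when single libraries were left out.

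Of the 9 members tested, 5 were called higher in seedlings (PYK10, BGLU21, BGLU22, NAI2 and MEB1) and 2 higher in floral buds (BGLU18 and TSA1), where called means an FDR below 0.05 in edgeR's quasi-likelihood test and a fold change above 2. Over all 18647 genes tested, 19.8% were called, 9.52% higher in seedlings and 10.3% higher in buds. The contrast was the one that led to the choice of the set, so the counts describe it and show nothing beyond it. In normalized CPM, taken from rounded counts, the libraries of the stages did not overlap for 9 of 9 members, and for 57.8% of all genes tested. For MEB2 this rests on rounding. Its 2.56 estimated counts in floral buds replicate 1 became 3 (3.73 CPM), and its 2.25 in seedlings replicate 1 became 2 (3.52 CPM). The median log2 fold change was 2.40 over the members and -0.06 over all genes tested. BGLU19 is the member that was not tested. The root markers moved to the seedling side as well (5 of 7 tested, with CASP1, PHT1-1 and PRP3 at 0 in both bud libraries), and so did the 6 green tissue markers, and their part in the results for PYK10, BGLU21, BGLU22, NAI2 and MEB1 was not tested.

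Within floral buds, BGLU18 led with 818 ± 52.1 CPM per kb of spliced length (SD, n = 2), followed by TSA1 with 36.6 ± 10.6. The other members detected there lay at or below 3.17 CPM per kb. MEB2, NAI1, MEB1 and PYK10 could not be ordered in buds, because the libraries of MEB2 and of PYK10 overlapped those of the others. Within seedlings, PYK10 led with 738 ± 30.1 CPM per kb, ahead of BGLU18 with 154 ± 26.8 and BGLU21 with 70.6 ± 24.1. BGLU22 (48.1) and NAI2 (39.2), as well as NAI1 (10.5) and MEB1 (9.94 CPM per kb), were not separated. MEB2 was last among the members detected in seedlings, at 1.80 CPM per kb. The paper gave its direct RNA counts as CPM, without division by length. In plain CPM, NAI2 (102) came before BGLU22 (100.1) and MEB1 (21.7) before NAI1 (16.3) in seedlings.

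**Figure D3:**
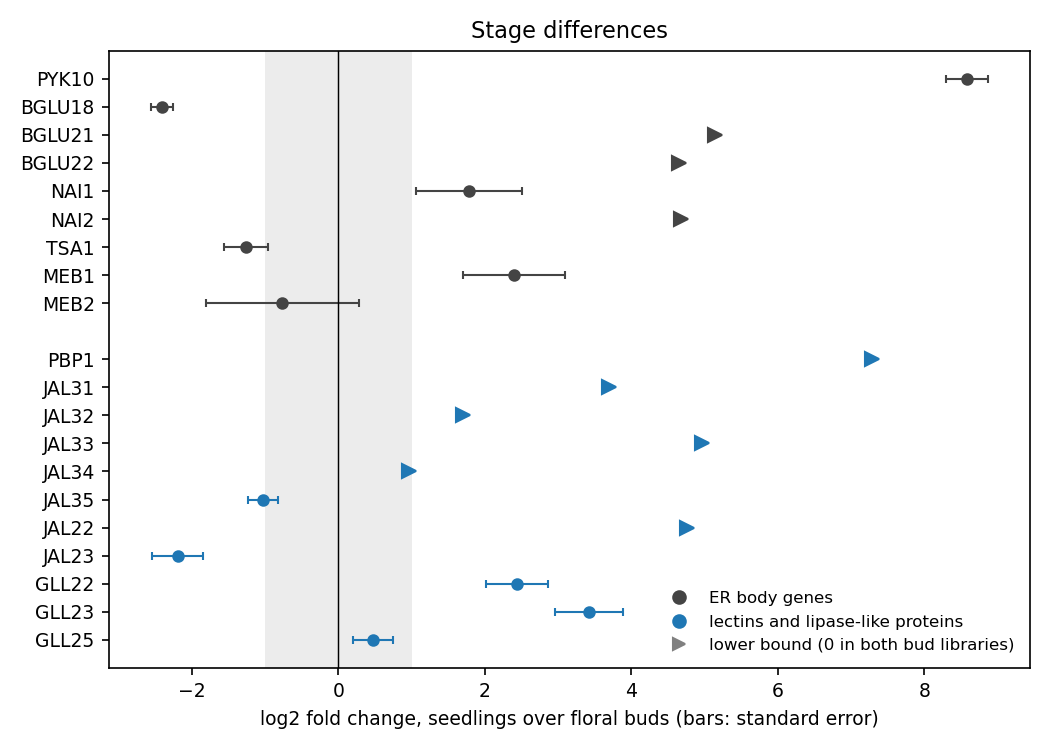
Log2 fold change of seedlings over floral buds for the ER body genes (dark) and the lectins and lipase-like proteins found with PYK10 (blue), with bars of 1 standard error, and arrowheads for lower bounds where both bud libraries are at 0. The grey band marks changes within the fold limit of 2. BGLU18 (-2.41), TSA1 (-1.26), JAL23 (-2.19) and JAL35 (-1.03) lie to the left of it.

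The bases upstream of the transcription starts were searched for the letters CANNTG (E-box), which bHLH proteins as a class recognise, and for CACGTG (G-box), which is itself an E-box, on both strands over 250 bases. A G-box occurred in 1 of the 10 members, NAI2, and in 6.49% of 27443 promoters, and an E-box in 6 of the 10 and in 55.3% of promoters. PYK10, BGLU21, BGLU22 and TSA1 held no E-box in this window. The lines show the NAI2 match and, for comparison, those of BGLU18 and NAI1, with the E-box letters in capitals and the genes' own strand read 5′ to 3′. The first letter of the match lies 86, 21 and 204 bases upstream of the annotated start, at chr3:5402722-5402751 (minus), chr1:19514956-19514985 (plus) and chr2:9684346-9684375 (plus).
NAI2: aaaaataaaagcCACGTGaattctattatt
BGLU18: attatttgctgcCACTTGgaaagaaaattg
NAI1: tatggtacgaatCACATGattttgatcttt
A match of letters is a description and not a binding site, and these matches did not divide the members by stage.

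The lectins and GDSL lipase-like proteins that join PYK10 in large aggregates once a cell breaks were tested as a list of 11 genes. Of these, 8 were higher in seedlings and 2 higher in buds, where 9.52% and 10.3% of all genes tested were. The median log2 fold change was 5.41, or 2.44 with genes at 0 in buds set at their lower bound. The lists were chosen with earlier results of these data known, so the FDRs given for their genes are a description. PBP1 (AT3G16420, also JAL30), a jacalin-related lectin that binds PYK10, had 0 and 0 estimated counts in buds and 367 and 350 in seedlings, at least 156-fold higher (FDR 1.15e-123 by edgeR). JAL33 had 0, 0, 68.7 and 75.3 counts, at least 31.2-fold higher (edgeR FDR 1.11e-33). PBP1, JAL31, JAL32, JAL33, JAL34 and JAL35 form a run of 6 lectin genes, with 1 other protein-coding gene among them, over 19935 bp at chr3:5579290-5599224. The first 5 were at 0 in both bud libraries. JAL35, the last of the run, had 200 and 179 counts in buds and 83.4 and 59.4 in seedlings (log2 fold change -1.03, SE 0.21, edgeR FDR 1.09e-05). It fell short of the fold limit without floral buds replicate 2 (-0.99) or seedlings replicate 2 (-0.77), and its call was lost under 2 other alternatives. JAL34 and JAL35 overlap by 631 bp on opposite strands, and reads were joined to genes without strand.

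The lectin pair on chromosome 2 divided in the same manner. JAL22 (AT2G39310) had 0, 0, 75.7 and 48.3 counts, at least 27.0-fold higher in seedlings (edgeR FDR 2.00e-29), whereas JAL23 (AT2G39330), 2637 bp away on the same strand, had 83.7, 61.2, 11.7 and 12.3 counts and was higher in buds (log2 fold change -2.19, SE 0.35, edgeR FDR 1.09e-08). Among the lipase-like genes, GLL22 (7, 11, 37 and 39 counts) and GLL23 (5.84, 3.89, 41.3 and 43.0 counts) were higher in seedlings, with log2 fold changes of 2.44 and 3.42. GLL25 (63.7, 45.0, 40.2 and 76.0 counts) was not called at 0.47 (SE 0.27). The list as a whole summed to 449 and 423 normalized CPM in buds and 1340 and 1268 in seedlings.

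**Figure D4:**
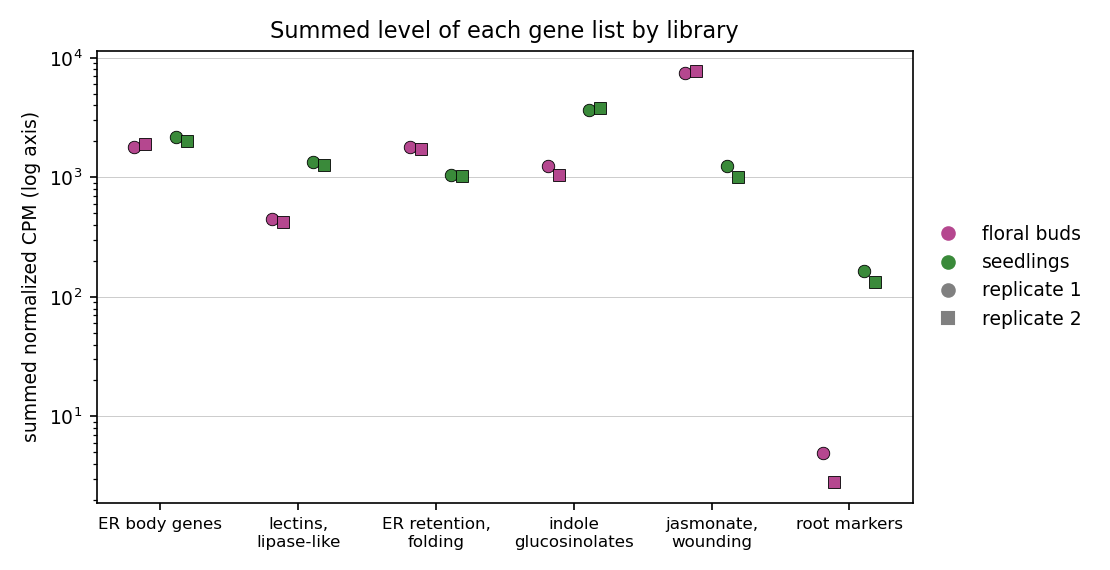
Summed normalized CPM (log axis) of 6 gene lists in each library. The ER body genes stand at 1808 to 2168 in all 4 libraries, the lectins and lipase-like proteins and the indole glucosinolate genes are higher in seedlings, and the jasmonate and endoplasmic reticulum folding lists are higher in buds.

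The other members of the β-glucosidase family did not share 1 direction. Of 42 family members outside the set, 33 were in the table and 22 were tested. Of those tested, 6 were higher in seedlings and 3 in buds, where 9.52% and 10.3% of all genes tested were. The median log2 fold change was 0.57 (0.40 with bounds). BGLU20 (ATA27, AT1G75940), a gene of the anther and the closest relative of BGLU18 by coding sequence among those compared (74.7%), had 678 and 614 counts in buds and 0 in both seedling libraries, at least 165-fold higher in buds (edgeR FDR 4.11e-138). BGLU18 was therefore not the one glucosidase with a high level in buds. BGLU44, a family member that cleaves mannosides, had 130, 125, 254 and 365 counts (log2 fold change 1.66, edgeR FDR 6.55e-19). Also higher in seedlings were BGLU33 with 9.39, 3.004, 23.4 and 26.2 counts (2.40, SE 0.51, and 3.25 without floral buds replicate 1) and BGLU8 with 24.8, 14.0, 31.9 and 56.4 counts (1.55, SE 0.35). The call of BGLU8 was lost without seedlings replicate 2 (1.14) and under 2 other alternatives. On the bud side, BGLU5 had 37.0, 33.6, 2.21 and 7.14 counts (-2.57, SE 0.51), with -1.96 without seedlings replicate 1 and -3.66 without seedlings replicate 2. BGLU40 had 32.6, 32.9, 4.19 and 10.4 counts (-1.84, SE 0.47) and was -2.60 without seedlings replicate 2. Its call was lost without seedlings replicate 1 (-1.35) and under 3 other alternatives. The myrosinases BGLU38 and BGLU37, which cleave glucosinolates in specialised cells, had higher counts than these. BGLU38 (TGG1) had the highest mean count over the 4 libraries of the glucosidases outside the set, with 1098, 1187, 1570 and 1821 counts, and was under the fold limit at 0.94. It passed the limit without floral buds replicate 2 (1.12) or seedlings replicate 1 (1.03), and stood at 0.02 with limma-voom and quantile normalization. BGLU37 (TGG2) was above BGLU38 in both bud libraries, with 1639, 1358, 636 and 826 counts (-0.65, SE 0.13), under the fold limit. BGLU26 (PEN2), which cleaves indole glucosinolates outside ER bodies, was under it as well at 0.87.

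The indole glucosinolate genes, which make substrates of ER body and other glucosidases, lay mostly with the PYK10 side. Of 16 tested genes of this pathway, 11 were higher in seedlings and 1 in buds, where 9.52% and 10.3% of all genes tested were. The median log2 fold change was 1.86. The list was led by GSTF9, a glutathione transferase placed in the pathway, with 446, 344, 1041 and 1170 counts (log2 fold change 1.87, edgeR FDR 1.38e-38). GSTF10, a gene of the same family, had 227, 178, 522 and 587 counts (1.84, edgeR FDR 2.75e-29). CYP83B1, which commits indole oximes to glucosinolates, had 23.9, 22.2, 92.3 and 73.6 counts (2.23, edgeR FDR 1.11e-12). The regulators MYB34 (2.52) and MYB51 (3.25) were also higher in seedlings, at counts of 1.61 to 20.5. CYP81F1, which modifies the indole ring, had 24, 12, 4 and 4 counts and was higher in buds (-1.75, edgeR FDR 0.0225), a call that was lost under several alternatives.

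Jasmonate and wound genes, whose hormone induces BGLU18-type bodies in leaves, were measured beside the bud side. Of 8 genes, 3 were higher in buds and 1 in seedlings, where 10.3% and 9.52% of all genes tested were. VSP1, a vegetative storage protein that is a standard jasmonate marker, had 4177 and 3898 counts in buds and 33.0 and 25.3 in seedlings (log2 fold change -6.73, SE 0.18, edgeR FDR 1.61e-309). VSP2 had 856, 754, 198 and 154 counts (-1.80, SE 0.16) and JAZ10, a jasmonate repressor gene, 109, 92.7, 10.8 and 3.20 (-3.44, SE 0.37). JAZ10 was -2.76 without seedlings replicate 2 and -4.66 without seedlings replicate 1. The gene higher in seedlings was TAT3, a tyrosine aminotransferase gene, with 0, 0, 9 and 7 counts, at least 3.48-fold higher than the floor in buds. LOX2, AOS, CORI3 and JAZ1 did not pass both limits. Flower organs also use jasmonate genes in normal development, and the part of any of these genes in the level of BGLU18 was not tested.

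Most genes for retention and folding in the endoplasmic reticulum were not called. Of 11 tested, 8 were not called and 3 were higher in buds, where 10.3% of all genes tested were, the calreticulin genes CRT1B (-1.55, SE 0.20) and CRT1A (-1.01, SE 0.19) and the calnexin gene CNX1 (-1.23, SE 0.20). The list had 0 genes called higher in seedlings. The call of CNX1 was lost under 1 alternative. The call of CRT1A was at the fold limit and was lost with glmTreat, DESeq2, limma-voom with quantile normalization (-0.97), no count filter (-0.96) or unrounded counts, and without floral buds replicate 1 (-0.89) or seedlings replicate 1 (-0.95). The receptors that return proteins bearing the retention signal, ERD2A (-0.49) and ERD2B (-0.78), did not pass both limits. Among relatives of NAI1, MEB1 and MEB2 and a TSA1 partner, 5 genes were tested. Of these, 2 were higher in seedlings and 1 in buds, where 9.52% and 10.3% of all genes tested were. The vacuolar iron transporter-like genes VTL5 (0, 0, 9.79 and 5.21 counts) and VTL2 (0, 3.11, 7.14 and 9.74) were higher in seedlings and VTL1 (18.9, 16.0, 4.90 and 1.23) higher in buds. These 3 calls are at low counts and were not stable. VTL1 was lost without floral buds replicate 1 (-2.09) or seedlings replicate 2 (-1.37), and was -3.63 without seedlings replicate 1. VTL2 was lost without floral buds replicate 1 (1.74) or seedlings replicate 2 (2.53), and both genes were lost with DESeq2, glmTreat and limma-voom with quantile normalization. VTL5 was lost without seedlings replicate 1.

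The genes whose levels over the 4 libraries were most like those of PYK10, by Euclidean distance of log2(normalized CPM + 5), were GRP9 (1.38), AT5G03545 (1.52) and GSTF2 (1.61). With a pseudocount of 1 the same 3 genes came first, but AT5G03545 (1.97) stood ahead of GRP9 (2.95) and GSTF2 (2.98). AT5G03545 had 4.11, 0.659, 372 and 377 counts, GRP9 had 0, 0, 560 and 512, and GSTF2 had 5.12, 4.38, 393 and 481. For BGLU18 they were VSP2 (1.02), XTH9 (1.03) and MLP423 (1.04). The distance was taken over 4 libraries of 2 stages, so it describes little beyond the stage difference.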

How the data were processed

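Estimated counts per gene were deposited by the authors, who mapped direct RNA reads with minimap2 2.17 to TAIR10 and quantified them with TrackCluster. There, reads are joined to genes by overlap without strand, so overlapping genes and close copies are uncertain. Of the values above 0, 83.7% were not whole (tolerance 0.001), and they were rounded before testing. The repeat of the columns in the table was identical. The fit used edgeR 4.0.16 (quasi-likelihood, upper-quartile factors, at least 5 counts summed over libraries, called at FDR below 0.05 and fold above 2) in R 4.3.3, and was tested on simulated data. Normalized CPM uses the same factors. Alternatives were TMM, library size alone, DESeq2 1.42.0, edgeR's exact test, limma-voom with quantile normalization (limma 3.58.1), glmTreat, other count filters and fold limits, a replicate block, and leaving out single libraries. The fit drew its dispersion from all genes together, so its FDRs and SEs do not measure the spread between replicates of a single gene. The members and gene lists were chosen with earlier results of these data known. From each list, at most 3 called genes per direction with the smallest FDR, and the highest one, are named, and others named were chosen after their values were seen. A permutation of 2 against 2 cannot go below 0.33. Same-numbered replicates did not deviate together (r = -0.06 over 6531 genes). Identities came from alignments, partly with blastn 2.17.0. Protein sequences were not used here.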

Additional observations from a re-analysis of the deposited data

How the results depend on the processing

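No called value of a member or of another gene named by the rule turned its direction under the alternatives run. The 5 members called higher in seedlings became 0 when at least 10 counts were required in every library, since all 5 had fewer than 10 counts in a bud library and that filter removes them. Of the other lists, it left 2 of 6 higher in seedlings and 0 of 3 higher in buds for the other β-glucosidases, 0 of 8 higher in seedlings for the lectins, 5 of 11 for the indole glucosinolate genes, 0 of 1 for the jasmonate genes, 0 of 2 for the NAI1 and MEB relatives, and 0 of 1 higher in buds for these relatives and for the indole genes. The 2 members higher in buds became 1 with glmTreat and 1 with limma-voom and quantile normalization, where TSA1 was lost. With glmTreat the calls were also 1 lectin, 1 folding gene and 0 indole genes higher in buds, and 1 relative higher in seedlings and 0 in buds. DESeq2 and limma-voom with quantile normalization each gave 1 relative higher in seedlings, 0 in buds, and 0 indole genes in buds. Without a count filter there were 1 lectin and 0 indole genes higher in buds. Without a fold limit there were 5 folding genes and 5 jasmonate genes higher in buds, and 2 jasmonate genes higher in seedlings. The cause of these shifts was not tested. Without division by length, 5 of 9 members kept their place in the order within seedlings.

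Leaving out single libraries gave 4 to 5 members higher in seedlings and 1 to 2 in buds. The ranges were 3 to 6 and 2 to 3 for the other β-glucosidases, where the 3 came without seedlings replicate 2, 7 to 8 and 1 to 2 for the lectins, 1 to 2 and 0 to 1 for the relatives, 0 and 2 to 4 for the folding genes, 10 to 12 and 0 to 1 for the indole genes, and 1 to 2 and 3 to 4 for the jasmonate genes. With the replicate block, the members' counts were 5 and 2, and the indole genes higher in buds were 0. The same-numbered libraries share only a number. Using library size alone moved the median log2 fold change of all genes from -0.06 to -0.15. Unrounded counts, an alternative chosen after seeing the data, left the members' counts at 5 and 2 and lost CRT1A. With 2 libraries a stage and levels near 3 counts, the values of NAI1 and MEB2 have little precision.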
